A study of Homo sapiens with 6 samples.

Results

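The levels of 9 genes that encode AP-1 transcription factors were followed through the 3 libraries labelled control: FOS, FOSB, FOSL1 and FOSL2 of the Fos family, JUN, JUNB and JUND of the Jun family, and the related factors ATF3 and BATF3. They were taken by symbol, and all 9 were found among the 17170 genes of the table. The set was selected on its TPM levels and on the spread of TPM between these same libraries, so both are given as a description, with no test. The study concerned NCI-H69, an established human small cell lung cancer line, and poly(A) RNA was sequenced. Control cells carried a non-targeting guide RNA of the CRISPR/Cas9 system and no loss of SCRMP, the product of the MIR7-3HG reading frame. The 3 samples of the other group, stable SCRMP knockouts, are not analysed here, because 0 of the 3 column names that the labels give for them were found in the header. The labels do not say whether the control cells were a pool or a clone. Nor is it stated how far back the 3 cultures were separate, so an SD below measures the spread between these libraries only.

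AP-1 is a dimer of proteins that share a basic DNA-binding stretch and a leucine zipper. Jun proteins pair with themselves or with Fos proteins, whereas Fos proteins need a partner, and the dimer binds a short palindrome known as the TRE or, with ATF partners, the related CRE. Several of these genes, FOS above all, are immediate early genes: growth factors, serum or stress switch them on within minutes without new protein synthesis, and their messages decay quickly. The factors are known for roles in proliferation, invasion and the response to stress.

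Promoter sequences show which short words the members have in common near their start sites. A link between these words and the levels was not tested. RefSeq promoter entries (GRCh38.p14) matched 7 of the 9 members, and FOSL1 and BATF3 had no entry. The 140 bases before the annotated start are printed 5′ to 3′ on the gene's strand. Capitals mark the CRE core TGACG, the 8-base TRE-like word TGANNTCA and the TATA box TATAAA, each searched on both strands.
FOS (chr14:75278688-75278827, plus strand): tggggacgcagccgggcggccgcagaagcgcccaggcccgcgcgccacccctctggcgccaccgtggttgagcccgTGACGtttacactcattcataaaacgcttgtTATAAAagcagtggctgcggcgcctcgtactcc
FOSB (chr19:45467856-45467995, plus strand): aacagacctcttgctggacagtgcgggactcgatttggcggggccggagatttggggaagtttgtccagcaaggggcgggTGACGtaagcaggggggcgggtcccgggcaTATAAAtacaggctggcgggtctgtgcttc
FOSL2 (chr2:28392718-28392857, plus strand): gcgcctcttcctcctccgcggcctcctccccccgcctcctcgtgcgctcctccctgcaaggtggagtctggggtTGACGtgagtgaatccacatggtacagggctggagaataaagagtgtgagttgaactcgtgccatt
JUN (chr1:58784048-58784187, minus strand): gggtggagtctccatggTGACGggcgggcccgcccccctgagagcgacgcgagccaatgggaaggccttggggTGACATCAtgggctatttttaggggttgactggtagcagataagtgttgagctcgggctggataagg
JUNB (chr19:12791346-12791485, plus strand): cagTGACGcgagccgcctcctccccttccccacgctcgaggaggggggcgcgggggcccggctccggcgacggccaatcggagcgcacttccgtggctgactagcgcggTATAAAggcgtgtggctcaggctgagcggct
JUND (chr19:18281623-18281762, minus strand): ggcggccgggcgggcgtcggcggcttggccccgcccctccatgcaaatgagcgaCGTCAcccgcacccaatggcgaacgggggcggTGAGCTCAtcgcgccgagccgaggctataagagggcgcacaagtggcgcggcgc
ATF3 (chr1:212565267-212565406, plus strand): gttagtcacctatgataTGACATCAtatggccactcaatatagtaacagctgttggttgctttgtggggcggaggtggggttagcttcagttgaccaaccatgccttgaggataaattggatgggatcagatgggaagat

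FOS and FOSB had a similar arrangement. In FOS a CRE core began 64 bases before the start and a TATA box 33 bases before it. In FOSB these began at 60 and 30 bases. JUNB had a TATA box at 31 bases and its CRE core farther out, at 137. JUN and ATF3 shared the 8-base word TGACATCA, at 67 bases in JUN and at 123 bases in ATF3. In the whole 250 bases searched, the CRE core was found in 6 of the 7 genes, FOS, FOSB, FOSL2, JUN, JUNB and JUND, and in 21.2% of the 35116 promoters of the table. TGANNTCA was found in 3 genes and in 10.1% of all promoters, and TATAAA in 4 genes and in 10.7%. The ATF3 match of TATAAA lay in a second, downstream promoter entry that is not printed. The full CRE, TGACGTCA, which contains the core and also fits the 8-base word, was found in JUND and in 1.65% of promoters. The 7-base TRE, TGANTCA, had 0 matches among the members and was found in 6.57% of promoters. The CArG box, the binding word of serum response factor, also had 0 matches and was found in 1.16%. A match of letters is not a site in use, and a window without one says nothing about the factor.

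The transcripts of the members also carry AU-rich words, which are known to mark short-lived messages. In the principal GENCODE 29 transcript of each gene (GRCh38), the pentamer ATTTA was found at least once in the 3′ untranslated region of all 9, with 5 copies in FOS and 9 in the much longer region of FOSL2. It was also found in 68.3% of the 7564 genes with a mean of at least 10 TPM and a gene model. The longer word TTATTTATT was found in 2 members, FOS and FOSL2, and in 7.23% of those genes. These sites are printed with the word in capitals.
FOS (base 646 of 806 in its 3′ untranslated region): tttttaatTTATTTATTaagatgga
FOSL2 (base 3917 of 4864): ttattttaTTATTTATTttaaatgt
Genes with that word had a median coefficient of variation (CV, the SD as a share of the mean) of 7.42% between the control libraries, against 6.02% for genes without it. They were lowest in control 1 and highest in control 3, the order of FOS, in 11.9% of cases, against 16.5%. For genes with ATTTA the share was also 11.9%. The groups were not matched for transcript length, which moved with the ratio of control 3 to control 1 (below). JUN, JUNB and JUND had a single exon, which held for 1.52% of these genes.

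The members lie on 5 chromosomes (RefSeq, GRCh38.p14) and all are annotated as protein coding. FOS (gene number 2353) is at chr14:75278828-75282230 and FOSL1 (8061) at chr11:65892049-65900545. FOSL2 (2355) is at chr2:28392858-28417317. JUNB (3726), JUND (3727) and FOSB (2354) are all on chromosome 19, at 12791486 to 12793315, 18279694 to 18281622 and 45467996 to 45475179. JUN (3725) is at chr1:58780791-58784047. ATF3 (467, chr1:212565407-212620777) and BATF3 (55509, chr1:212686417-212699840) are 65639 bases apart. Transcripts of 3 members overlap a gene on the other strand: FOSB meets ERCC1, JUNB meets HOOK2 and FOSL2 meets FLJ31356. The libraries keep the strand per the labels, but whether the counting used it is not stated. ERCC1 had 50.6, 49.2 and 49.4 TPM and HOOK2 18.0, 17.2 and 18.5 TPM in controls 1, 2 and 3.

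Estimated reads summed to 20941185, 22309228 and 22477571 in controls 1, 2 and 3. The expression of lineage markers departed from the label in all 3 libraries. Of 11 measured neuroendocrine markers, 2 were detected, meaning at 1 TPM or more in every library: NCAM1 at 25.7 TPM ± 3.66 and SYT1 at 14.3 TPM ± 1.67 (SD, n = 3). The sum over all 11 ran from 36.3 to 47.6 TPM. Of all genes, 66.5% were detected. CHGA and INSM1 had 0.080 TPM ± 0.020 and 0.650 TPM ± 0.0458. Of 12 mesenchymal markers 11 were detected, led by VIM (4542 TPM ± 87.8) and TWIST1 (320.5 TPM ± 4.86). ZEB1 and FN1 varied most among them, with CVs of 14.2% and 12.4%. Of 10 epithelial markers 3 were detected, with ESRP1 at 39.4 TPM ± 5.22 and CLDN7 at 16.1 TPM ± 2.42 highest. Leukocyte markers had 2 of 6 detected, CORO1A (7.49 TPM ± 1.03) and CD68 (1.36 TPM ± 0.281), and endothelial markers 0 of 6, with ESAM at 0.563 TPM ± 0.0839 and EMCN at 0.0633 TPM ± 0.00577 highest. What the cells in these libraries were was not tested.

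Jun family genes were abundant and varied moderately. JUNB, often an opponent of JUN in growth control, had 436.4, 515.8 and 590.7 TPM in controls 1, 2 and 3 (514.3 TPM ± 77.2). JUND, which is expressed widely in resting cells, had 287.8, 355.0 and 388.8 TPM (343.8 TPM ± 51.4). Both were lowest in control 1 and highest in control 3. JUN, the founding member of the family and a target of JNK signalling, had 237.5, 319.7 and 283.7 TPM (280.3 TPM ± 41.2). It too was lowest in control 1, but control 2 was highest. The highest library exceeded the lowest by 1.35-fold in each of these genes, and the CVs were 15.0%, 15.0% and 14.7%. Each rested on a mean of at least 8227 reads, for which counting error alone gives a CV of 0.926%, 1.10% and 0.935%.

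ATF3 and BATF3 stood far apart. ATF3, a stress-induced factor that can repress or activate with Jun partners, was the highest of the 9 genes at 729.4, 851.1 and 923.0 TPM (834.5 TPM ± 97.9), and rank 155 among all genes by mean TPM. It was again lowest in control 1 and highest in control 3, by 1.27-fold. BATF3, known for its part in dendritic cell development, had 10.7, 11.4 and 10.2 TPM (10.8 TPM ± 0.594). Its lowest library was control 3, or control 1 with TPM scaled by median of ratios. From a mean of 105.7 reads, counting error alone gives a CV of 9.73%, above the 5.53% observed, so a difference between libraries was not detectable for BATF3 at this depth.

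The Fos family held the 2 lowest levels and the 3 highest CVs of the 9 genes. FOS had 46.8, 85.5 and 111.5 TPM (81.3 TPM ± 32.6), from 1141, 2269 and 3024 reads. Control 1 was well below the others, and control 3 held 2.38 times its level. FOSL2, also called FRA2, had 17.8, 19.3 and 22.5 TPM (19.9 TPM ± 2.41), with controls 1 and 2 close together and control 3 above them. FOSL1, or FRA1, which marks invasive cells in many tumours, had 1.00, 1.78 and 2.85 TPM (1.88 TPM ± 0.929). FOSB, an immediate early gene like FOS, had 1.01, 1.49 and 2.28 TPM (1.59 TPM ± 0.641). Both had the same order of libraries as FOS. They rest on few reads. FOSL1 had 18 reads in control 1 (exact 95% Poisson interval 10.7 to 28.4, counting error only), 38 (26.9 to 52.2) in control 2 and 61 (46.7 to 78.4) in control 3. FOSB had 44 (32.0 to 59.1), 70 (54.6 to 88.4) and 112 (92.2 to 134.8). For both genes the intervals of controls 1 and 3 do not overlap, whereas those of neighbouring values do in 3 of the 4 pairs.

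**Figure D1:**
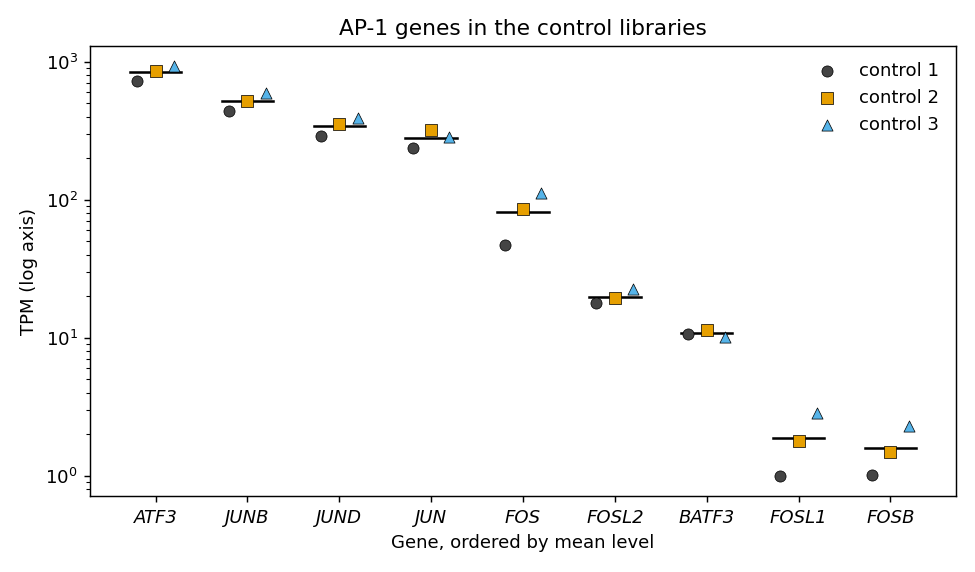
TPM of the 9 AP-1 genes (log axis) in each control library, ordered by mean level, with a bar at the mean of 3 libraries. ATF3 leads at 834.5 TPM and FOSB is last at 1.59 TPM, and control 1 is the lowest library for every gene but BATF3, which joins them with TPM scaled by median of ratios.

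All 9 members were detected, against 66.5% of all genes, and 7 had a mean of at least 10 TPM, against 44.1%. The 2 lowest were detected by a narrow margin, with 1.00 TPM for FOSL1 and 1.01 TPM for FOSB in control 1. With FPKM, median-of-ratios scaling or TPM centred in bins of length, 7 of the 9 were detected. TPM are per transcript length, so levels can be ordered between genes. The order was ATF3, JUNB, JUND, JUN, FOS, FOSL2, BATF3, FOSL1 and FOSB. JUND and JUN overlapped in range, although JUND was higher within each of the 3 libraries, by 1.23-fold on the means. FOSL1 and FOSB overlapped as well, with FOSL1 higher in 2 of 3 libraries. No other neighbours in this order overlapped. The widest steps between neighbours were from BATF3 to FOSL1 (5.73-fold) and from FOS to FOSL2 (4.09-fold).

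Jun messages far outnumbered Fos messages. Summed over its 3 genes, the Jun family had 961.7, 1190.5 and 1263.2 TPM in controls 1, 2 and 3, and the 4 Fos genes had 66.7, 108.1 and 139.2 TPM. The Fos sum was thus 6.93%, 9.08% and 11.0% of the Jun sum (9.01% ± 2.04), a ratio that differed by 1.59-fold between libraries. Within the Jun family the shares were steadier: JUNB held 45.2% ± 1.73, JUND 30.2% ± 0.526 and JUN 24.7% ± 2.20. FOS held 76.5% ± 5.44 of the Fos sum, with 70.2% in control 1, and FOSL2 held 20.3% ± 5.68, with 26.7% in control 1. Together the 9 genes summed to 1768, 2161 and 2336 TPM. Message levels do not give protein levels or the dimers formed.

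**Figure D2:**
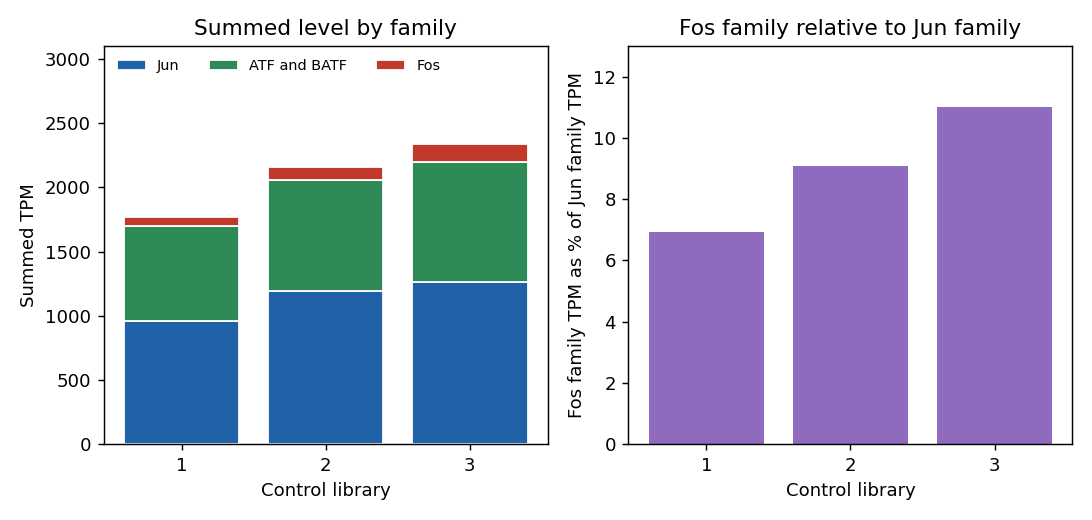
Left, summed TPM of the Jun genes, of ATF3 with BATF3 and of the Fos genes in each control library. Right, the Fos sum as a percentage of the Jun sum, which is 6.93% in control 1 and 11.0% in control 3.

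FOS had the highest CV, 40.1%, of all 7577 genes with a mean of at least 10 TPM, and counting error alone gives 2.16% at its depth. Those 7577 genes had a median CV of 6.11%, and a CV of at least 20% was found in 1.90% of them. Of the 7 members at that level, FOS alone passed 20%, and FOS alone had a highest library at least 1.5 times the lowest, against 1.45% of these genes. The Jun genes were above the 90th percentile of 13.6%, at ranks 536 (JUNB), 543 (JUND) and 582 (JUN). FOSL2 (12.1%), ATF3 (11.7%) and BATF3 (5.53%) were below it, at ranks 1081, 1197 and 4206. FOSL1 and FOSB had CVs of 49.5% and 40.2%, where counting error alone gives 16.0% and 11.5%. With all 9 members counted, 3 passed 20% and the same 3 passed 1.5-fold, against 6.60% and 5.30% of the 11418 detected genes. The rule used these values, so nothing is read from the counts. Control 1 carried much of the spread of FOS: without it the CV was 18.7%, the ratio 1.30 and the rank 84. Without control 1 the CVs of JUNB, JUND, JUN and ATF3 were 9.57%, 6.42%, 8.42% and 5.74%, and that of FOSL1 was 32.7%. Without control 3 the CV of FOSL2 was 5.53%, and the ratios of FOSL1 and FOSB were 1.78 and 1.48. Of all 9 members, 2 were at 20% or more without control 1, 5 without control 2 and 4 without control 3. Among genes with a mean of at least 10 TPM the share at 20% was 0.831%, 6.97% and 1.31% in these settings. FOSL1 and FOSB, counted among the 9, are below that mean.

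**Figure D3:**
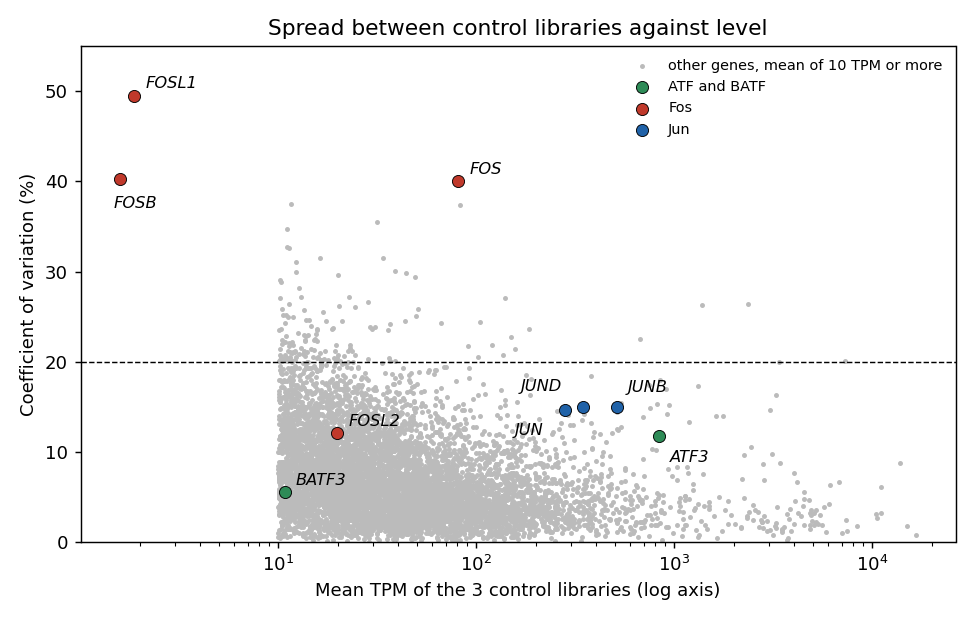
CV between the 3 control libraries against mean TPM (log axis) for genes with a mean of at least 10 TPM (grey) and the 9 AP-1 genes (coloured by family), with a dashed line at 20%. FOS lies above every grey point at 40.1%, and the Jun genes sit together near 15.0%.

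Among genes with a mean of at least 10 TPM, the highest CVs after FOS were those of IGFBP5 (37.5%) and the heat shock gene HSPA6 (37.4%). IGFBP5 encodes a binding protein of insulin-like growth factors. Next came HILPDA (35.5%), a lipid droplet protein induced by hypoxia, SH3BGR (34.7%) and the DNA damage kinase ATM (32.7%). Profiles most like that of FOS were sought among 143 other genes with a mean of at least 10 TPM and a CV of at least 20%. Likeness was the largest of the 3 differences in log2(TPM over the gene's mean), where a smaller value is nearer. ZFP36, whose protein triggers decay of AU-rich messages, was nearest at 0.20, with 13.1, 22.8 and 23.8 TPM. HILPDA (0.29), the MAP kinase phosphatase DUSP1 (0.30), DEDD2 (0.30) and NDUFA4L2 (0.30) followed. FOSL1 and FOSB, which are below 10 TPM and so were not candidates, had 0.15 and 0.17. Over 3 libraries such likeness has little power to tell profiles apart.

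Control 1 was the lowest library for 8 of the 9 members, against 20.2% of detected genes. For 7 of them control 1 was lowest and control 3 highest, against 13.7%. Among genes with a mean of at least 10 TPM these shares were 23.0% and 16.1%, and 5 of 7 members had control 1 lowest and control 3 highest. The shares depend on the scaling. With TPM scaled by median of ratios, 48.4% of those genes were lowest in control 1 and 35.1% also highest in control 3, and BATF3 then joined the others, with control 1 lowest in all 9. The count of 7 was also 7 under that scaling, with FPKM and with scaled reads. The share of genes with a mean of at least 10 TPM in that order was 23.8% with FPKM and 23.4% with scaled reads. The log2 ratio of control 3 to control 1 was 1.25 for FOS, the largest in either direction of the 7577 genes, whose median was -0.08. In TPM it was 1.51 for FOSL1 and 1.17 for FOSB. It was 0.44 for JUNB, 0.43 for JUND, 0.34 for ATF3 and FOSL2, 0.26 for JUN and -0.06 for BATF3. With median-of-ratios scaling the median of all genes was 0.05 and the ratio of FOS 1.37. The labels give no split of these libraries by batch, so none could be made.

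Other immediate early genes followed this order in part. Of 30 measured, 23 were detected, against 66.5% of all genes, and 16 had a mean of at least 10 TPM, against 44.1%. Of these 16, 3 had a CV of at least 20%: ZFP36 (29.6%), DUSP1 (27.0%; 99.1, 147.1 and 173.8 TPM) and the zinc finger factor KLF4 (20.7%; 19.8, 23.4 and 29.8 TPM). In 7 of the 16 control 1 was lowest and control 3 highest in TPM, against the 16.1% above. With median-of-ratios scaling these were 9 of the 16 and 35.1%. The most abundant were PPP1R15A, which restarts translation after stress (617.6 TPM ± 46.6), and DUSP1 (140.0 TPM ± 37.8). EGR1, which is commonly induced together with FOS, was at 1.31, 1.08 and 1.59 TPM. MCL1, a survival gene on the same list, differed by 0.951% (CV). The median CV over the 16 was 7.32%, close to the 6.11% of all genes. A CV of at least 20% was found in 1.90% of all genes with a mean of at least 10 TPM. Without control 1 it was found in 0 of the 16 and in 0.831% of all such genes.

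Heat shock genes were mostly low in the same library. Of 15 with a mean of at least 10 TPM, 13 were lowest in control 1 in TPM, against 23.0% of all such genes, and 5 had the order of FOS, against 16.1%. With median-of-ratios scaling 14 were lowest in control 1 and 6 had that order, against 48.4% and 35.1%. Their median CV was 14.7%, and 4 were at 20% or more, against 1.90% of all such genes. That number was 1 without control 1 and 7 without control 3, against 0.831% and 1.31% of all such genes. HSPA6, strictly inducible, had 54.7, 116.1 and 77.8 TPM, and HSPA1B had 1777, 3020 and 2294 TPM, where the split of reads with its near-identical copy HSPA1A (2.42 TPM ± 0.772) is uncertain. Control 2 was highest for both, as it was for JUN. The constitutive chaperone HSPA8 (3042 TPM ± 447) and the endoplasmic reticulum chaperone HSPA5 (2802 TPM ± 243) were the most abundant, and HSPA5 was highest in control 1. The list summed to 14699, 18837 and 17040 TPM in controls 1, 2 and 3. The part of a stress response in the AP-1 values was not tested.

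**Figure D4:**
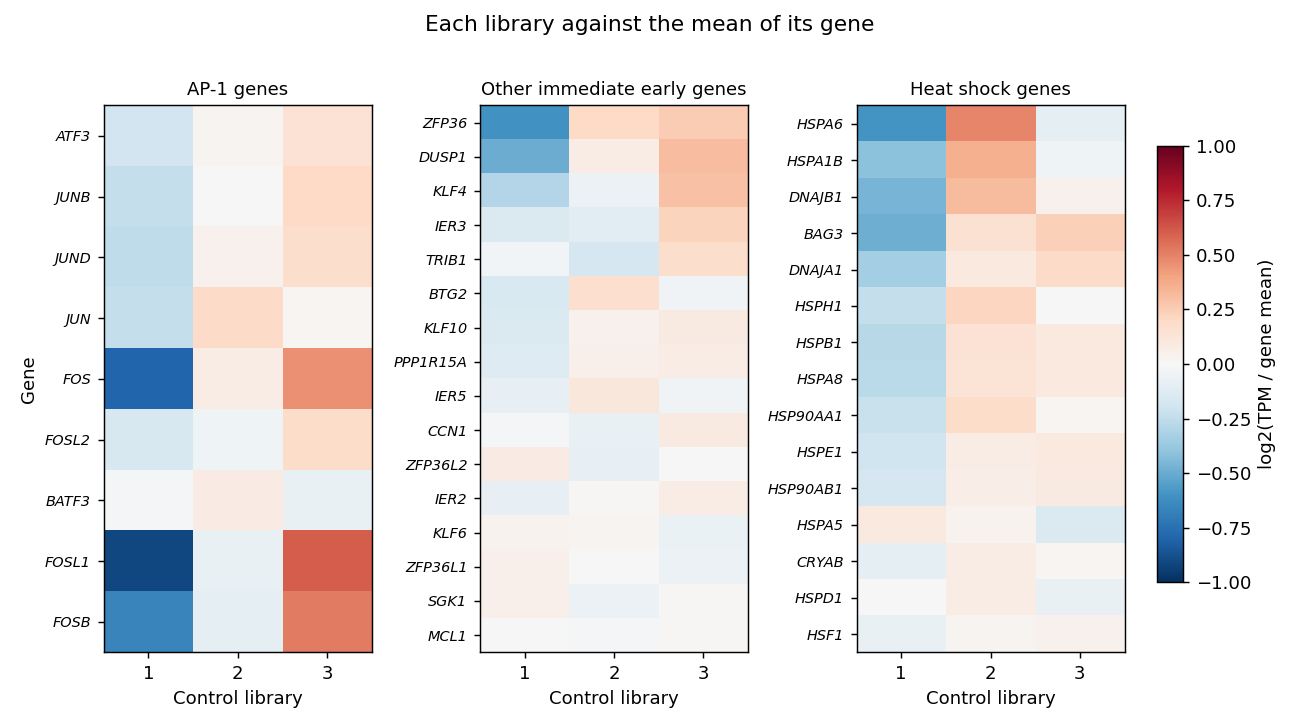
Log2 of TPM over the gene's mean in each control library for the 9 AP-1 genes (by level) and for the other immediate early and heat shock genes with a mean of at least 10 TPM (by CV). Control 1 (left column of each panel) is lowest for 8 of 9 AP-1 genes in TPM and for all 9 with median-of-ratios scaling, and HSPA6 and HSPA1B are highest in control 2.

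Transcript length moved with the library ratio. Genes with a mean of at least 10 TPM were split into 5 equal groups by length, taken from their reads per FPKM. The median log2 ratio of control 3 to control 1 was 0.01 and -0.01 in the groups up to 2.18 kb, -0.06 in the third, -0.13 in the fourth and -0.22 in genes over 4.24 kb. Long messages were therefore lower in control 3. ATF3, FOS, JUNB and JUND fell in the second group, JUN in the fourth and FOSL2 in the longest. For these 6 genes the ratio lay above the 90th percentile of their group, which was 0.22, 0.10 and 0.01 in these 3 groups. With TPM centred within bins of length, the spread was as large: the CV of FOS was 40.6%, that of FOSL2 18.5% in place of 12.1%, and those of the Jun genes 14.8% to 16.9%.

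**Figure D5:**
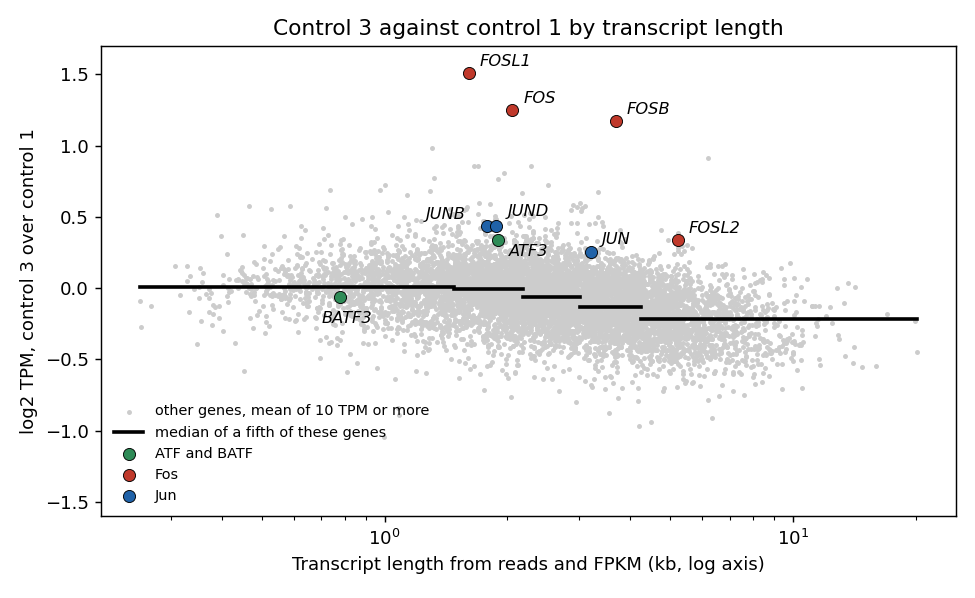
Log2 ratio of TPM in control 3 to control 1 against transcript length in kb (log axis), for genes with a mean of at least 10 TPM (grey), the median in 5 groups of length (black bars) and the 9 AP-1 genes. The bars descend from 0.01 to -0.22, and every AP-1 gene but BATF3 lies above the bar of its length.

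Among the remaining AP-1 superfamily genes with a mean of at least 10 TPM, 1 had a CV of at least 20%. Of all genes at that level 1.90% did. With a minimum mean of 1 TPM the number was 2, against 7.70% of genes. Of 11 measured, 7 were detected, against 66.5% of all genes, and 5 had a mean of at least 10 TPM, against 44.1%. The median CV of the 5 was 4.24%. JDP2, a Jun-binding repressor, was highest at 87.6 TPM ± 3.46, followed by the small MAF protein gene MAFG (64.0 TPM ± 7.83, CV 12.2%). MAFF, another small MAF gene, was at 32.0, 42.0 and 58.1 TPM and a CV of 29.8%. It had the order of FOS. Without control 3, 0 of the 5 genes reached 20%, against 1.31% of all genes at that level. BATF, the lymphoid relative of BATF3, was listed at 0 in all 3 libraries. Other leucine zipper factors of the ATF, CREB, C/EBP and NRF groups had 25 of 27 detected, against 66.5% of all genes. Of 23 with a mean of at least 10 TPM, 0 had a CV of at least 20%, against 1.90%, and the median CV was 7.11%. Without control 2 the number was 1, against 6.97% of all such genes. The stress factors ATF4 (1132 TPM ± 53.6) and DDIT3 (925.3 TPM ± 75.5) were the most abundant of these leucine zipper factors, and BACH1 (15.8%) and CREB3L2 (12.0%) varied most.

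Genes that act upstream of AP-1 were nearly all detected. Of 33 signalling genes and serum response factor partners, 31 were detected, against 66.5% of all genes. Of the 33, 24 had a mean of at least 10 TPM, against 44.1% of all genes. Of these 24, 0 had a CV of at least 20%. Of all genes at that level, 1.90% had such a CV. The number for the list was 1 with median-of-ratios scaling (1.48% of all such genes) and 2 without control 2 (6.97%). The median CV of the 24 was 7.88%. MAP2K2, of the ERK pathway, was the most abundant at 229.2 TPM ± 9.41. MAP2K3, an activator of p38, had 9.64, 10.6 and 13.3 TPM (CV 16.9%). Message levels of kinases do not give their activity. Genes for turnover of AP-1 proteins and messages had 19 of 19 detected, against 66.5% of all genes. The deadenylase subunit PAN2 had a CV of 19.4%. HNRNPD (219.7 TPM ± 17.0) and DDB1 (119.1 TPM ± 0.809) were highest.

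Textbook targets of AP-1 were uneven in level. Of 21 measured, 14 were detected, against 66.5% of all genes, and 10 had a mean of at least 10 TPM, against 44.1%. The median CV of the 10 was 6.38%. At a CV of 20% there were 0 of the 10, against 1.90% of all such genes. Without control 1 there were 2, against 0.831%. HMOX1, which degrades heme, and VIM, the intermediate filament gene, were the most abundant, at 6052 TPM ± 254 and 4542 TPM ± 87.8. The chemokine CCL2 (511.5, 474.0 and 633.0 TPM) and the growth factor TGFB1 (37.6, 33.4 and 44.7 TPM) varied most, with CVs of 15.4% and 14.8%, and both were lowest in control 2. In 5 of the 10 control 1 was lowest and control 3 highest in TPM, against 16.1% of all genes at that level, and in 6 with median-of-ratios scaling, against 35.1%. Other lists also held this order in part. In TPM it was found in 8 of 24 upstream genes, 3 of 23 other leucine zipper factors, 2 of 10 mesenchymal markers and 1 of 14 turnover genes. With median-of-ratios scaling these counts were 12, 10, 5 and 4. For the other AP-1 superfamily genes it was 2 of 5 under both. The collagenase MMP13 was listed at 0 in all 3 libraries. The median level of the list was 4.59 TPM, against 6.87 TPM for all genes.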

How the data were processed

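Per the submitters' processing notes, the tools were HISAT2, StringTie and DESeq2 and the build was GRCh38; versions and roles are not stated. The authors deposited TPM, FPKM and estimated counts (reads, not whole numbers) per gene and library, per the file headers. How reads that fit several genes were assigned is likewise not stated. Columns were matched to samples by name. For knockout samples 0 of 3 names were found, and 12 columns of further libraries, whose names match no label, were not used in any step.

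TPM were used for levels, with mean, SD, CV and the highest over the lowest library (n = 3). Counting error is the Poisson CV of the mean reads. A gene was detected at 1 TPM in every library, and spread was ranked among genes with a mean of at least 10 TPM. Calls were a CV of 20% and a ratio of 1.5. No test was run, since only 1 group had columns. The 9 members and the 12 gene lists were chosen with earlier results of these data known. Named genes were the members, the 2 highest and 2 most variable genes of each list, the 5 nearest to FOS and the 5 of highest CV; others, such as EGR1, KLF4 and MCL1, were named after their values were seen. Some genes that this rule names are not reported here. Read counts of library pairs differed by more than sampling noise (chi-square per degree of freedom 6.18 to 15.8). The CV script was tested on simulated data. Alternatives were FPKM, scaled reads, median-of-ratios scaling, other minimums, bins of length and leaving out each library. Software: matplotlib 3.10.9, scipy 1.17.1, numpy 2.4.6 and pandas 2.3.3 under Python 3.11.15.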

Additional observations from a re-analysis of the deposited data

How the results depend on the processing

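The number of members with control 1 lowest and control 3 highest was 7 of 9 under each of the 5 scalings. The share of genes with a mean of at least 10 TPM in that order was not constant. It was 16.1% with TPM, 23.8% with FPKM, 23.4% with scaled reads, 26.2% with length bins and 35.1% with median-of-ratios scaling. No paired analysis was possible because the knockout group has 0 named columns; the planned comparison of knockout and control, with or without a block, was not run. With estimated reads the median level of the members relative to the median gene was 2.80 (log2) in place of 3.57. The Fos sum was 11.2% of the Jun sum in place of 9.01% in that setting. BATF3 went from above the median gene to below it, at -1.53 (log2). With FPKM, median-of-ratios scaling or length bins, 7 members were detected in place of 9. By CV, FOS ranked 67 with a minimum of 1 TPM, 1 with a minimum of 50 TPM and 2 with TPM centred in bins of length, an alternative chosen after seeing the data. Leaving out each library in turn gave a median CV of the members of 9.57% to 21.1%, 2 to 5 members at a CV of 20%, a FOS rank of 1 to 84, a CV of FOS of 18.7% to 57.8% and a ratio of its highest to its lowest library of 1.30 to 2.38. The lowest CVs, count and ratio, and rank 84, came without control 1. With each library left out in turn, the Fos sum was 8.00% to 10.05% of the Jun sum. That ratio differed by 1.21 to 1.59 times between libraries. The median level of the members was 3.23 to 3.90 in these settings. Of 438 alternative values, 376 stayed within their spread or within 1.5 times, 61 did not and 1 changed sign. Scaled reads, unlike TPM, are not divided by transcript length, so between genes they are another quantity. Apart from this difference in quantity, the cause of these shifts was not tested. FOSL1 and FOSB rest on 39.0 and 75.3 mean reads, which limits what their spread can show.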
